A study of Mus musculus with 20 samples.

Results

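The mouse genome holds 10 Frizzled genes, Fzd1 to Fzd10, which encode the cell-surface receptors of secreted WNT proteins. They were picked by gene symbol from the gene abundance tables of 15 bulk RNA-seq libraries, and all 10 were listed among 54446 gene IDs. All 10 also passed the filter on low values (a mean of at least 1 TPM, a length-corrected transcript abundance, over the 15 libraries), as did 14290 genes in total. The libraries came from embryo-like aggregates of mouse embryonic stem cells (mESC, strain label F1G4). Such aggregates can grow an axis, somites and a neural tube, and which of these each group had formed was not tested here. Every group carried the genotype T::H2B-mCherry/Sox2::H2B-Venus, in which fluorescent histones report Brachyury and Sox2, and every group had received 3 µM CHIR99021 after 48 h of aggregation. CHIR99021 inhibits GSK3 and so activates WNT signalling downstream of its receptors. The 5 groups were precursors at 96 h (96h), gastruloids at 120 h without Matrigel (Gastruloid), and 3 kinds of trunk-like structure at 120 h in Matrigel, a basement membrane gel. Of these, TLSMG had Matrigel alone, TLSMGC had Matrigel and added CHIR, and TLSMGCL had Matrigel, CHIR and LDN, a BMP receptor inhibitor. Each group had 3 libraries, described as biological replicates, each from 10 pooled structures at 96h or 6 at 120 h that had been selected for an asymmetric pole. All came from 1 stem cell strain, so p-values measure the spread between pools of that strain, and the added CHIR, LDN and Matrigel differed between groups without a dose in the labels.

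Frizzled proteins cross the membrane repeatedly and bind WNT ligands with a cysteine-rich outer domain. Together with LRP5 or LRP6 they stabilise beta-catenin (the canonical branch), and together with VANGL, CELSR and PRICKLE proteins they orient cells within a sheet (planar cell polarity). By sequence they fall into the subfamilies Fzd1, Fzd2 and Fzd7, then Fzd5 and Fzd8, then Fzd4, Fzd9 and Fzd10, and last Fzd3 and Fzd6. In the embryo's posterior end WNT signalling maintains the tailbud and presomitic mesoderm, and RNF43 and ZNRF3 remove Frizzled receptors from the cell surface as negative feedback.

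The tables hold TPM, which is corrected for gene length, so levels can be compared between genes. Relative depth, read as coverage per unit of FPKM, differed by a factor of 2.19 between the shallowest library (3.12) and the deepest (6.84). In reads of 75 bases, the coverage of single-transcript members came to about 73 to 831 for Fzd9, 140 to 3610 for Fzd8 and 302 to 5141 for Fzd4 per library. It came to about 10271 to 29539 for Fzd2, so the abundant members were measured more precisely. No stretch of 75 bases of a member's transcripts occurred in another annotated gene. Fzd3 overlaps Gm27263 on the same strand and Gm9086 on the opposite strand. Fzd5 overlaps Gm38058 and Fzd6 overlaps Gm26704, both on the opposite strand. The values of Fzd3, Fzd5 and Fzd6 were uncertain to that extent, though a stranded kit can separate genes on opposite strands. Tissue markers followed the labels in part: all 11 presomitic and tailbud genes were lower in Gastruloid than in 96h (20.5% of all genes were), and 8 of 9 neural tube genes tested were higher (20.8% of all genes). In bulk libraries, fewer cells of a type and less RNA per cell cannot be told apart.

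The make-up of the Frizzled pool differed between groups. The summed level of the 10 genes was 428 ± 1.30 TPM in 96h, 442 ± 5.16 in Gastruloid, 493 ± 28.9 in TLSMG, 423 ± 17.7 in TLSMGC and 413 ± 23.4 in TLSMGCL (mean ± SD, n = 3). Fzd2, Fzd7 and Fzd10 dominated in every library. Together they made up 88.3% ± 1.11 of the pool in 96h, 80.5% ± 0.60 in Gastruloid, 77.2% ± 0.75 in TLSMG, 88.3% ± 0.73 in TLSMGC and 88.1% ± 1.18 in TLSMGCL. Libraries of Gastruloid and TLSMG thus lay between 76.6% and 80.8%, below all others, which lay between 87.1% and 89.4%. Fzd10 alone took 29.9% ± 1.83 in 96h, 14.2% ± 0.84 in Gastruloid, 14.7% ± 1.48 in TLSMG, 24.1% ± 1.58 in TLSMGC and 19.0% ± 1.84 in TLSMGCL. Fzd2 moved the other way, from 28.8% ± 1.02 in 96h to 41.9% ± 0.66 in Gastruloid and 38.4% ± 0.71 in TLSMG, with 31.6% ± 0.90 in TLSMGC and 33.1% ± 1.16 in TLSMGCL. These shares are values without a test and do not depend on how a library was scaled.

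**Figure D1:**
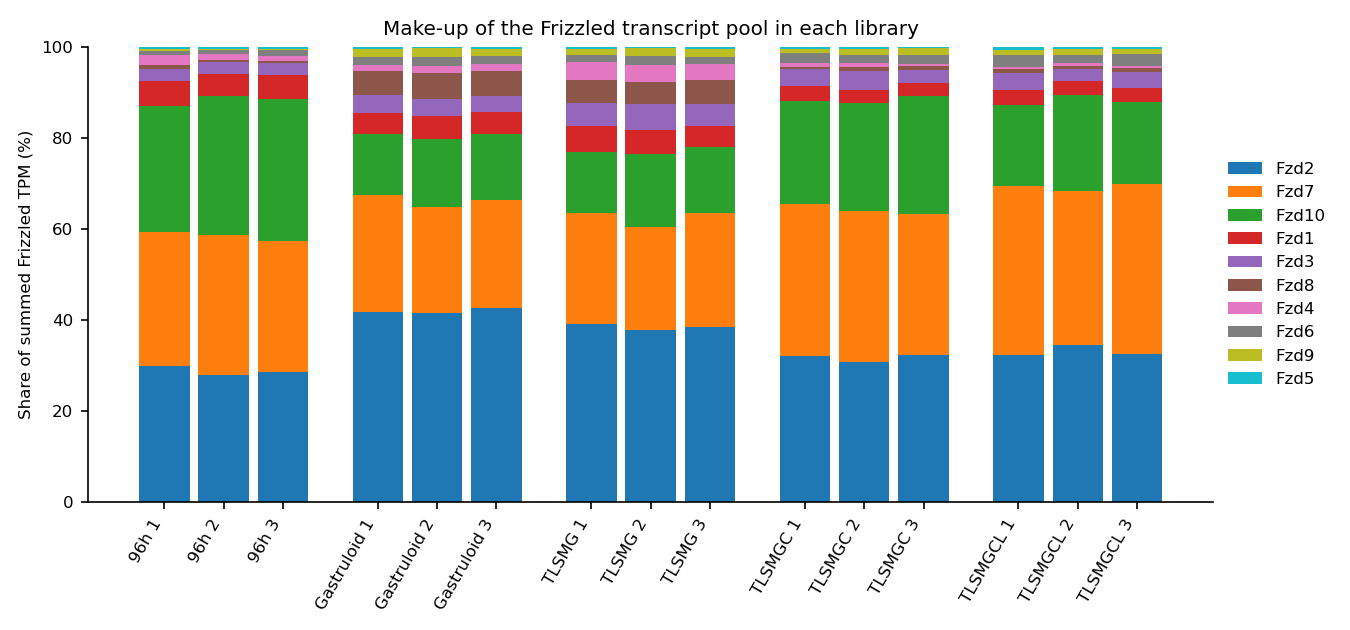
Share of each Frizzled gene in the summed Frizzled TPM, in percent, as stacked bars for each of the 15 libraries (number after the group is the replicate). Fzd2, Fzd7 and Fzd10 fill 87.1% or more of the bar in 96h, TLSMGC and TLSMGCL, and 80.8% or less in Gastruloid and TLSMG, where the Fzd8 band widens.

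Between groups, 9 of the 10 genes differed in the moderated F test of limma over the 5 groups (adjusted p from 1.91e-09 for Fzd8 to 0.0038 for Fzd6), against 73.5% of all genes tested. The exception was Fzd5 (adjusted p 0.771). Among the 4 groups at 120 h, 8 of 10 differed, all but Fzd5 (adjusted p 0.658) and Fzd6 (adjusted p 0.605), against 62.7% of all genes. On the log2(TPM + 1) scale the highest and lowest group means lay 2.92 apart for Fzd8, 2.69 for Fzd4, 1.91 for Fzd9, 1.10 for Fzd3 and 1.02 for Fzd10. The same distance was 0.94 for Fzd6, 0.92 for Fzd1, 0.62 for Fzd2, 0.46 for Fzd7 and 0.20 for Fzd5. Neighbours in the order of group means were compared in the same fit, and for the 4 pairs of groups used to order levels alone the share of all genes called was 40.7% (TLSMGC and 96h), 39.5% (TLSMGCL and 96h), 42.2% (TLSMGC and Gastruloid) and 36.1% (TLSMGCL and Gastruloid). The members with the widest ranges were, apart from Fzd10, those at low or moderate levels, and the abundant Fzd2 and Fzd7 varied least after Fzd5.

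**Figure D2:**
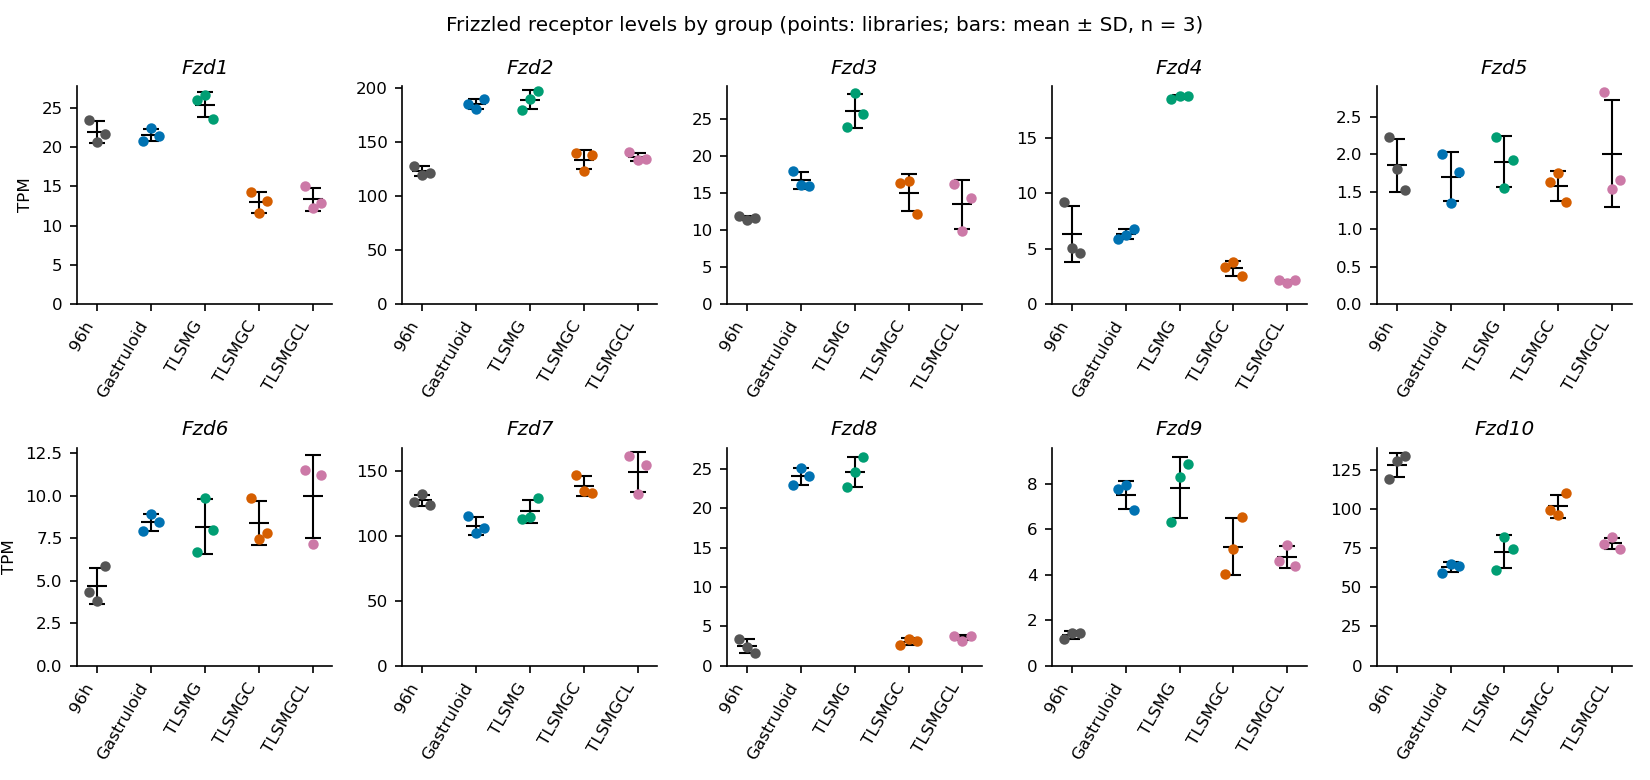
Level of each Frizzled gene in TPM (linear axis from 0, its own scale in each panel) by group; coloured points are libraries, black bars the mean ± SD (n = 3). Fzd8 is high in Gastruloid and TLSMG, Fzd4 is high in TLSMG, and Fzd10 is highest in 96h.

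Bases around the gene start were searched in the members for which a promoter window was listed. RefSeq's table of promoter windows (250 bases before to 50 after a gene's start, build GRCm38.p6) matched 6 of the 10 members by symbol, namely Fzd1, Fzd4, Fzd5, Fzd7, Fzd9 and Fzd10. They were searched on both strands for CTTTG followed by AA, AT, TA or TT, letters recognised by TCF and LEF, the DNA-binding partners of beta-catenin; this search was chosen after the values had been seen. A match stood in 1 of the 6 windows, that of Fzd7, and in 5544 of all 32851 windows (16.9%). The members' share was thus near that of all windows and showed nothing particular to them. The match in Fzd7 is CTTTGTT on the opposite strand, and it fills positions -130 to -124 from the RefSeq start, counted along the gene's strand. The gene model of Fzd7 in the deposited tables starts at 59482424, past the end of the window (59482196). The match thus lies farther from that start. Both Fzd7 (0.22 on the log2 scale, limma adjusted p 0.0451) and Fzd10 (0.49, 0.00102) rose with added CHIR, though the call of Fzd7 was narrow and was lost in several alternative fits. The window of Fzd10 held no match, but it (128600856 to 128601155) lay wholly within the gene model of the deposited tables. That model starts at 128600844, so no base before its start was searched for Fzd10. A match is a description of the letters, not a binding site, and its part in the response to CHIR was not tested. Fzd9 fell with added CHIR (-0.51, limma adjusted p 0.0149), and its window held no match. Only 67 bases of that window lay before the gene model, and they are not shown. The parts before the start, or before the gene model of the deposited tables, are shown for Fzd7, the member with the match, and for Fzd4 and Fzd1, which also fell with added CHIR. They run 5′ to 3′ along the gene's strand, at chr1:59481897-59482146 (plus strand), chr7:89404116-89404354 (plus) and chr5:4758217-4758466 (minus) of GRCm38.p6, and capitals mark the match.
Fzd7: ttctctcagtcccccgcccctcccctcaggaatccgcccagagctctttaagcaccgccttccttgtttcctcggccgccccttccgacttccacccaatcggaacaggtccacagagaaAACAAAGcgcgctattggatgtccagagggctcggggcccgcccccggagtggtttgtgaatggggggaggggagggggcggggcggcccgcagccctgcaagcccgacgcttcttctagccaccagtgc
Fzd4: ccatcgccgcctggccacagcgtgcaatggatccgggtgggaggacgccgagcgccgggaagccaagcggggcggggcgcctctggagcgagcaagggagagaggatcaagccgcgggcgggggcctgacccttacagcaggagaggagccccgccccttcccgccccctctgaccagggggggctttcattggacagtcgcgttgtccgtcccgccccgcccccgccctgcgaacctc
Fzd1: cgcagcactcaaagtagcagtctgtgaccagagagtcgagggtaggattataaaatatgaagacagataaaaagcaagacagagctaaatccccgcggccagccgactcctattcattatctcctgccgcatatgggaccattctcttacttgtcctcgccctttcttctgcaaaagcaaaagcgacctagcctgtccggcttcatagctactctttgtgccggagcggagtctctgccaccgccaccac

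Fzd2, Fzd7 and Fzd1 form a subfamily of mostly abundant members. Fzd2 (ENSMUSG00000050288.6, chromosome 11, 102604396 to 102608058, mm10) measured 128, 119.8 and 121 TPM in the 96h libraries, 185, 181 and 189.8 in Gastruloid, and 180.1, 190.3 and 198 in TLSMG. It measured 140.0, 124 and 138 TPM in TLSMGC and 141, 134 and 135 in TLSMGCL. The libraries of Gastruloid and TLSMG all lay above those of the other 3 groups. In the order of group means, TLSMG and Gastruloid did not differ beyond their spread (adjusted p 0.712), Gastruloid differed from TLSMGCL (adjusted p 5.92e-05), and TLSMGCL, TLSMGC and 96h did not differ between neighbours (adjusted p 0.890 and 0.119).

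Fzd7 (ENSMUSG00000041075.8, chromosome 1, 59482424 to 59486955) varied over a narrower range and, unlike Fzd2, had its lowest group means in Gastruloid and TLSMG. Its levels were 126, 132 and 123 TPM in 96h, 115, 102 and 106 in Gastruloid, and 112, 114 and 129 in TLSMG. They were 147, 134 and 133 TPM in TLSMGC and 161, 132 and 154 in TLSMGCL. No neighbouring groups in the order TLSMGCL, TLSMGC, 96h, TLSMG and Gastruloid differed (adjusted p from 0.197 to 0.629), although groups further apart did. Fzd1 (ENSMUSG00000044674.6, chromosome 5, 4753839 to 4758035) stood at 23.4, 20.6 and 21.7 TPM in 96h, 20.8, 22.4 and 21.4 in Gastruloid, and 26.0, 26.6 and 23.6 in TLSMG. With added CHIR it stood at 14.2, 11.6 and 13.1 TPM in TLSMGC and at 15.0, 12.2 and 12.9 in TLSMGCL. All 6 libraries with added CHIR lay below the other 9, and the order broke only between Gastruloid and TLSMGCL (adjusted p 0.000114).

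Fzd8 and Fzd5 belong to a subfamily known from anterior neural tissue and its derivatives. Fzd8 (ENSMUSG00000036904.5, chromosome 18, 9212856 to 9216201) measured 3.41, 2.32 and 1.61 TPM in 96h, 23.0, 25.1 and 24.2 in Gastruloid, and 22.7, 24.7 and 26.5 in TLSMG. It measured 2.63, 3.39 and 3.15 TPM in TLSMGC and 3.75, 3.18 and 3.79 in TLSMGCL. Thus 6 libraries stood at 22.7 TPM or more and 9 at 3.79 TPM or less, with none between. TLSMG and Gastruloid did not differ (adjusted p 0.905), nor did TLSMGCL and TLSMGC (adjusted p 0.686) or TLSMGC and 96h (adjusted p 0.190), while Gastruloid differed from TLSMGCL (adjusted p 6.35e-08). Further apart in the order, TLSMGCL passed against 96h (0.44 on the log2 scale, limma adjusted p 0.0345), with overlapping libraries. The table's model of Fzd8 is shorter than that of the GENCODE M21 annotation (9212163 to 9218136), which bears on its level against other genes, and its values under the longer model were not computed. Fzd5 (ENSMUSG00000045005.9, chromosome 1, 64730558 to 64737751) was the least abundant member, at a mean of 1.81 TPM over all libraries. Its 3 libraries ranged from 1.52 to 2.23 TPM in 96h and from 1.35 to 2.00 in Gastruloid. With Matrigel the ranges were 1.55 to 2.23 TPM (TLSMG), 1.36 to 1.75 (TLSMGC) and 1.53 to 2.83 (TLSMGCL), and all groups overlapped.

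Fzd10, Fzd4 and Fzd9 form a subfamily whose members each had another order of groups. Fzd10 (ENSMUSG00000081683.5, chromosome 5, 128600844 to 128604093) measured 119, 131 and 134 TPM in 96h, 59.2, 65.2 and 63.8 in Gastruloid, and 61.4, 82.1 and 74.4 in TLSMG. It measured 99.2, 96.0 and 110.2 TPM in TLSMGC and 77.5, 82.0 and 74.7 in TLSMGCL. The 96h libraries were highest and those of TLSMGC next, with no overlap to any other group. Along the order, 96h differed from TLSMGC (adjusted p 0.0126), while TLSMGC and TLSMGCL (0.0777), TLSMGCL and TLSMG (0.349) and TLSMG and Gastruloid (0.106) did not pass at adjusted p 0.05.

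Fzd4 (ENSMUSG00000049791.4, chromosome 7, 89404355 to 89413134), known as the receptor of Norrin in vessels of the retina and of the blood-brain barrier, stood out in TLSMG. Its levels were 9.19, 5.09 and 4.60 TPM in 96h, 5.87, 6.26 and 6.81 in Gastruloid, and 18.5, 18.8 and 18.8 in TLSMG. They were 3.35, 3.80 and 2.50 TPM in TLSMGC and 2.13, 1.90 and 2.16 in TLSMGCL. The TLSMG libraries lay above all others, those of TLSMGC below 96h, Gastruloid and TLSMG, and those of TLSMGCL below every other group. TLSMG differed from Gastruloid (adjusted p 0.000155) and 96h from TLSMGC (0.00483), whereas Gastruloid and 96h (0.835) and TLSMGC and TLSMGCL (0.310) did not pass. Fzd9 (ENSMUSG00000049551.2, chromosome 5, 135248938 to 135251230), a receptor with roles in bone and the hippocampus, measured 1.15, 1.44 and 1.44 TPM in 96h, 7.76, 7.96 and 6.82 in Gastruloid, and 6.30, 8.31 and 8.88 in TLSMG. It measured 4.04, 5.11 and 6.54 TPM in TLSMGC and 4.59, 5.30 and 4.38 in TLSMGCL. The 96h libraries were lowest, and those of TLSMGC overlapped with TLSMG. TLSMGCL differed from 96h (adjusted p 1.44e-05) and Gastruloid from TLSMGC (0.0226), and the other neighbours in its order did not differ (0.847 and 0.844).

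Fzd3 and Fzd6 are the members best known from planar cell polarity, in axon tracts, the inner ear and hair follicles. Fzd3 (ENSMUSG00000007989.7, chromosome 14, 65192449 to 65262463) measured 11.8, 11.3 and 11.7 TPM in 96h, 18.0, 16.1 and 16.0 in Gastruloid, and 23.9, 28.5 and 25.6 in TLSMG. It measured 16.3, 16.6 and 12.1 TPM in TLSMGC and 16.2, 9.81 and 14.3 in TLSMGCL. TLSMG lay above every other group and differed from the next, Gastruloid (adjusted p 0.00681), and no other neighbours differed (adjusted p from 0.403 to 0.718). The difference between TLSMG and Gastruloid was gone after a correction for GC content and length (-0.01, limma adjusted p 0.918). Fzd6 (ENSMUSG00000022297.15, chromosome 15, 39006034 to 39038188) measured 4.34, 3.80 and 5.86 TPM in 96h, 7.94, 8.93 and 8.46 in Gastruloid, and 6.68, 9.88 and 7.97 in TLSMG. It measured 9.86, 7.48 and 7.80 TPM in TLSMGC and 11.5, 7.14 and 11.2 in TLSMGCL. The 96h libraries lay below all others, TLSMG differed from 96h (adjusted p 0.00689), and the 120 h groups overlapped with no neighbours that differed (adjusted p from 0.453 to 0.953).

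From 96h to Gastruloid, the change over time without Matrigel, Fzd8, Fzd9, Fzd6, Fzd2 and Fzd3 rose and Fzd10 and Fzd7 fell. These 5 higher and 2 lower of 10 members compare with 20.8% of all genes tested called higher and 20.5% lower by limma at an adjusted p of 0.05 (41.2% in either direction). Groups did not overlap for the same 7 members and for 56.8% of all genes. Fzd8 rose from 2.45 ± 0.91 to 24.1 ± 1.08 TPM, a ratio of 9.84 and a log2(TPM + 1) difference of 2.90 (95% interval 2.57 to 3.22, limma adjusted p 5.7e-09). Fzd9 rose by 1.86 on that scale (1.54 to 2.18, adjusted p 3.97e-07), Fzd6 by 0.75 (0.36 to 1.15, 0.00506) and Fzd2 by 0.59 (0.46 to 0.71, 3.05e-06). Fzd10 fell from 128 ± 7.54 to 62.7 ± 3.14 TPM, a log2 difference of -1.02 (-1.22 to -0.82, adjusted p 1.53e-06). The calls of Fzd3 (0.49, adjusted p 0.0202) and Fzd7 (-0.24, adjusted p 0.0307) were narrow. Fzd3 lost its call without 96h replicate 2 (adjusted p 0.0561) or Gastruloid replicate 1 (0.0708), and Fzd7 without 96h replicates 1 or 2 (0.0628, 0.0981) or Gastruloid replicates 2 or 3 (0.109, 0.0775). Fzd7 also lost it with FPKM (-0.15, adjusted p 0.0861), quantile normalization (0.0506) and no filter on low values (0.0522). The median log2 difference was 0.27 over the members and 0.0044 over all genes, and with FPKM in place of TPM the calls of all genes split into 3597 higher and 2158 lower.

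From 96h to TLSMG, the same interval in Matrigel, Fzd4 rose as well, and Fzd10 was the sole member to fall. There were 6 members higher and 1 lower, against 33.5% and 12.5% of all genes (46.0% in either direction). Both comparisons share the 96h libraries. Fzd8 rose by 2.92 on the log2 scale (2.60 to 3.25, adjusted p 5.44e-09), Fzd9 by 1.91 (1.58 to 2.23, 2.93e-07) and Fzd4 by 1.49 (1.09 to 1.88, 2.03e-05). Fzd3 rose by 1.10 (adjusted p 6.07e-05), Fzd6 by 0.70 (0.00689) and Fzd2 by 0.62 (1.63e-06), while Fzd10 fell by 0.82 (1.09e-05). The median of all genes was itself 0.14 in this comparison, against 0.66 over the members. Scaling by median of ratios removed that shift, split the calls of all genes into 3299 higher and 3186 lower in place of 4792 and 1785, and called Fzd7 lower (-0.26, adjusted p 0.00477), where the main value was -0.10 (0.333); FPKM called it lower too (-0.19, 0.0370). Fzd1 did not overlap between the groups but did not pass (0.20, adjusted p 0.0897), although it passed with library weights (0.23, 0.0322) and after a correction for GC content and length (0.29, 0.0189), and non-overlap held for 58.4% of all genes.

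Between TLSMG and Gastruloid, which differ in Matrigel, Fzd4 and Fzd3 were higher in TLSMG and no member was lower, against 31.5% of all genes higher and 7.87% lower (39.3% in either direction). Fzd4 stood at 18.7 ± 0.16 TPM in TLSMG and 6.31 ± 0.47 in Gastruloid, a ratio of 2.96 and a log2 difference of 1.43 (1.04 to 1.82, adjusted p 0.000155). Fzd3 stood at 26.0 ± 2.30 and 16.7 ± 1.13 TPM, a log2 difference of 0.61 (0.28 to 0.94, adjusted p 0.00681). For Fzd8 (0.03, -0.30 to 0.36), Fzd9 (0.04, -0.28 to 0.37) and Fzd2 (0.03, -0.09 to 0.15) the intervals of the difference spanned 0. Groups did not overlap for Fzd4, Fzd3 and Fzd1, and for 52.3% of all genes. The median of all genes was 0.13 and that of the members 0.12, and median-of-ratios scaling split the calls of all genes into 2776 higher and 2586 lower in place of 4497 and 1125. Log2 differences in this comparison correlated with transcript GC content at r = -0.41 across 14283 genes, which are not independent replicates. The transcript of Fzd3 has 40.3% GC, the lowest of the 10, and after a correction for GC content and length its difference was -0.01 (adjusted p 0.918), whereas Fzd4 kept its call. Under the same correction Fzd3 kept its calls with smaller differences in TLSMG against 96h (0.71), TLSMGC against TLSMG (-0.48) and TLSMGCL against TLSMG (-0.54). The correction also brought Fzd1 (0.30, adjusted p 0.0228), Fzd2 (0.14, 0.0412) and Fzd10 (0.33, 0.00824) past the threshold, and Fzd10 passed without TLSMG replicate 1 (0.31, 0.0102) and with library weights (0.23, 0.0337; main value 0.20, 0.106).

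Added CHIR in Matrigel, TLSMGC against TLSMG, went with lower levels of most members: Fzd8, Fzd4, Fzd1, Fzd3, Fzd9 and Fzd2 fell, and Fzd10 and Fzd7 rose. These 6 lower and 2 higher members compare with 30.5% of all genes lower and 10.4% higher (40.9% in either direction), and groups did not overlap for 7 members and 52.4% of all genes. Fzd8 fell from 24.6 ± 1.88 to 3.05 ± 0.39 TPM, a ratio of 0.124 and a log2 difference of -2.66 (-2.99 to -2.33, adjusted p 3.75e-08). Fzd4 fell from 18.7 ± 0.16 to 3.21 ± 0.66 TPM, a log2 difference of -2.24 (-2.63 to -1.84, adjusted p 7.78e-07). Fzd1 fell by 0.92 on the log2 scale (adjusted p 5.46e-06), Fzd3 by 0.76 (0.00137) and Fzd2 by 0.50 (1.77e-05). Fzd10 rose from 72.6 ± 10.5 to 102 ± 7.41 TPM, a log2 difference of 0.49 (0.29 to 0.69, adjusted p 0.00102). The calls of Fzd9 (-0.51, adjusted p 0.0149) and Fzd7 (0.22, adjusted p 0.0451) were narrow. Fzd9 lost its call under quantile normalization (-0.26, adjusted p 0.236), median-of-ratios scaling (-0.38, 0.0717), FPKM (-0.36, 0.05004) and a fit of these 2 groups alone (0.0582), and without TLSMG replicates 2 or 3 (0.0542, 0.0665) or TLSMGC replicate 1 (0.0690). Fzd7 lost its call without TLSMG replicates 1 or 2 (0.135, 0.132) or any TLSMGC replicate (0.149, 0.0634 and 0.0568), with no filter on low values (0.0773), without the trended prior (0.0644) and in the fit of 2 groups (0.0629), whereas median-of-ratios scaling raised it to 0.36 (0.000617). The median was -0.50 over the members and -0.16 over all genes, whose calls split into 2482 higher and 2824 lower after median-of-ratios scaling in place of 1490 and 4352.

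LDN on top of CHIR, TLSMGCL against TLSMGC, gave no member past limma's adjusted threshold, against 0.406% of all genes higher and 0.777% lower (1.18% in either direction). At an unadjusted p under 0.05, 2 members were lower, Fzd10 and Fzd4, against 1850 of all genes (12.9%). Fzd10 stood at 78.1 ± 3.69 TPM with LDN and 102 ± 7.41 without, a log2 difference of -0.38 (-0.58 to -0.18, adjusted p 0.0777), with no overlap, which held for 15.8% of all genes. With limma's library weights the adjusted p was 0.0354, and over all alternatives it ran from 0.0224 to 0.212. Fzd4 stood at 2.06 ± 0.14 and 3.21 ± 0.66 TPM, a difference of -0.45 (-0.84 to -0.06, adjusted p 0.310), also with no overlap. The intervals of the other 8 members spanned 0, from Fzd2 (0.03, -0.10 to 0.15) to Fzd6 (0.21, -0.19 to 0.60). Over all genes 58 were called higher and 111 lower, or 105 and 100 after scaling by median of ratios.

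CHIR and LDN together, TLSMGCL against TLSMG, again went with lower Fzd4, Fzd8, Fzd3, Fzd1, Fzd9 and Fzd2 and with higher Fzd7. The 6 lower and 1 higher members compare with 35.6% of all genes lower and 9.31% higher (44.9% in either direction), and this comparison shares the TLSMG libraries with the one for CHIR. Groups did not overlap for these 7 members and for 54.7% of all genes. Fzd4 fell to 2.06 ± 0.14 TPM, a ratio of 0.11 and a log2 difference of -2.69 (-3.08 to -2.29, adjusted p 1.39e-07), and Fzd8 fell by 2.48 (5.63e-08). Fzd3 fell by 0.93 (adjusted p 0.000293), Fzd1 by 0.88 (6.58e-06), Fzd9 by 0.61 (0.005) and Fzd2 by 0.47 (2.53e-05). Fzd7 rose from 119 ± 9.17 to 149 ± 15.3 TPM, a log2 difference of 0.33 (0.15 to 0.50, adjusted p 0.00517). Fzd10 stood at 78.1 ± 3.69 against 72.6 ± 10.5 TPM, and its difference of 0.11 (adjusted p 0.349) was 0.30 (adjusted p 0.0255) after median-of-ratios scaling. That scaling split the calls of all genes into 2611 higher and 3013 lower in place of 1330 and 5086, since their median was -0.18. The same scaling moved Fzd7 to 0.51 and Fzd2 to -0.28, both still called. After quantile normalization Fzd9 lost its call (-0.31, adjusted p 0.146) and Fzd6 gained one (0.51, 0.0232).

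**Figure D3:**
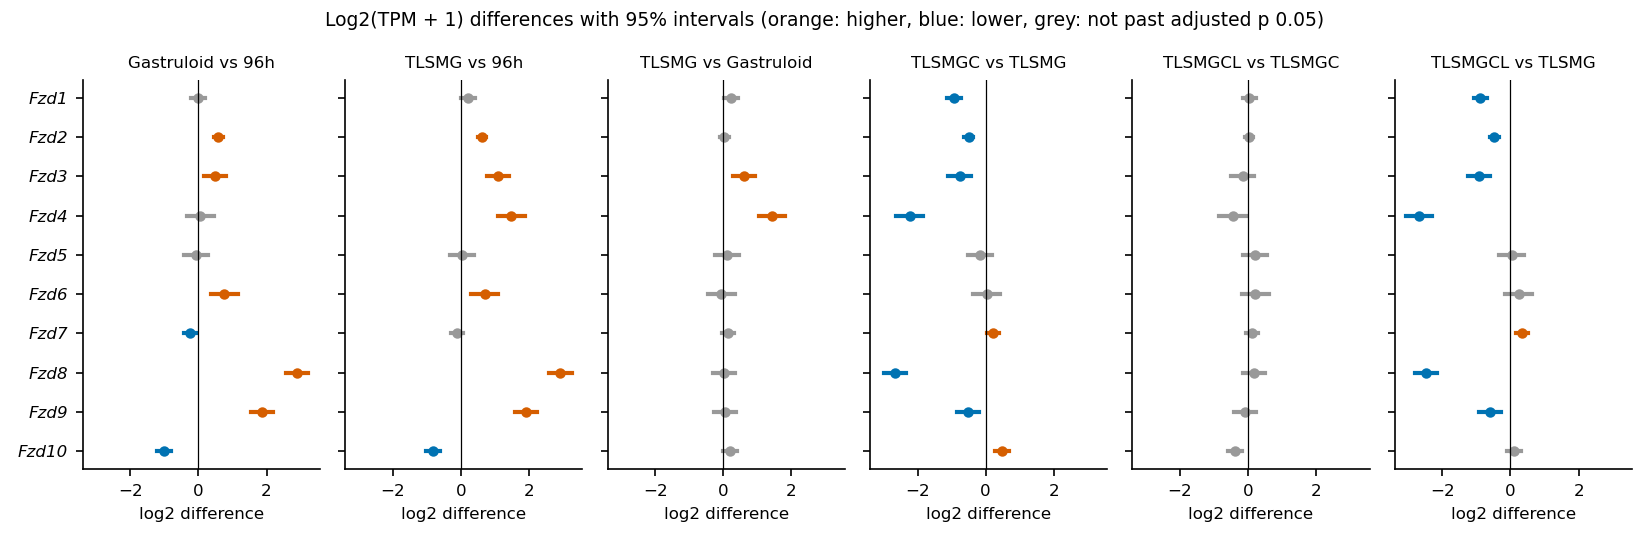
Difference of each Frizzled gene between groups on the log2(TPM + 1) scale (first group minus second; points with 95% intervals from the fit of all 15 libraries) in the 6 comparisons. Orange marks members called higher, blue lower, grey those not past an adjusted p of 0.05; the intervals of Fzd8 and Fzd4 lie farthest from 0, and the panel of TLSMGCL against TLSMGC holds grey points alone.

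The WNT ligands of these receptors changed in both directions. Counts over this and the next lists stand against 20.8% of all genes higher and 20.5% lower in Gastruloid than in 96h, and 10.4% higher and 30.5% lower in TLSMGC than in TLSMG. Of 19 WNT genes, 11 were tested; 2 were higher and 7 lower in Gastruloid than in 96h (median -1.34), and 6 were higher and 4 lower in TLSMGC than in TLSMG (median 0.59). Wnt3a, a ligand of the tailbud, averaged 34.1 TPM in 96h and 1.17 in Gastruloid, a log2 difference of -3.99. Wnt6 averaged 0.138 TPM in TLSMG and 54.6 in TLSMGC (5.58), and Wnt11 0.472 and 12.9 (3.26). In the other direction, Wnt5a, the most abundant WNT gene in TLSMG, averaged 44.2 TPM there and 13.5 in TLSMGC. Of the co-receptors, 6 were tested: none was higher and 2 lower in Gastruloid than in 96h, and 1 was higher and 1 lower with CHIR. That is 2 of 6 in each, no more than the 41.2% and 40.9% of all genes called in either direction. In that last comparison Ptk7, a polarity co-receptor, rose by 0.69 and Lrp6 fell by 0.57 on the log2 scale.

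Among genes that remove or retain Frizzled proteins or set their surface level, listed together with the folding gene Mesd, 9 of 12 were tested. With CHIR 3 of them rose and 3 fell: Shisa2, which retains Frizzled in the endoplasmic reticulum, fell by 1.42, Lgr4, an R-spondin receptor, fell by 1.09, and Rspo1 rose by 0.76. From 96h to Gastruloid 2 rose and 4 fell, with Rspo3, a ligand that protects Frizzled from removal, at 162 TPM in 96h and 13.9 in Gastruloid (-3.50). Secreted antagonists fell in the same interval, 6 of 7 tested, and Sfrp2, which binds WNT proteins, rose by 2.08. With CHIR, 3 of these 7 rose and 4 fell, and Notum, an enzyme that inactivates WNT proteins, went from 2.38 to 67.0 TPM (4.34).

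Of the cytoplasmic transducers, 14 of 14 tested, 3 rose and 6 fell with CHIR, against 10.4% and 30.5% of all genes, with Axin2 at 2.05, Tcf7 at 1.50 and Tcf7l1 at -1.43 on the log2 scale. The planar cell polarity genes went with Fzd3 and Fzd6 only in part: with CHIR 6 of 8 tested fell and 1 rose (median -0.63), with Prickle1 at -1.18 and Celsr1 at -1.14, while Fzd3 fell and Fzd6 did not pass (0.04). WNT target genes, 11 of 11 tested, held 9 lower and none higher in Gastruloid than in 96h (median -1.37), and 10 higher and none lower in TLSMGC than in TLSMG (median 1.50). Their summed level was 696 to 704 TPM in 96h, and without added CHIR at 120 h it was 153 to 184 (Gastruloid) and 192 to 221 (TLSMG). With added CHIR it was 788 to 868 TPM (TLSMGC) and 653 to 757 (TLSMGCL). Of the Frizzled genes, Fzd8 was lower in 96h, TLSMGC and TLSMGCL than in Gastruloid and TLSMG. Fzd10 was higher in 96h and TLSMGC than in Gastruloid and TLSMG. In TLSMGCL, where the target sum was high as well, Fzd10 was higher than in Gastruloid (0.31, limma adjusted p 0.0186). It did not pass there against TLSMG (0.11, adjusted p 0.349).

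Markers of cell types moved with several members. The summed level of 9 endothelial markers was highest in TLSMG, at 267 to 324 TPM. It was 10.1 to 14.8 TPM in 96h and 34.6 to 45.8 in Gastruloid, and with added CHIR 25.1 to 84.5 (TLSMGC) and 12.8 to 21.2 (TLSMGCL), with no marker listed at 0. Of these markers 8 of 9 were higher in TLSMG than in Gastruloid and 9 of 9 lower in TLSMGC than in TLSMG, the comparisons in which Fzd4 rose and fell (31.5% and 30.5% of all genes). So did the 3 tested components of the Norrin and RECK receptor complexes that work with FZD4 or in brain vessels: Adgra2, Tspan12 and Reck were higher in TLSMG than in Gastruloid by 0.88, 0.71 and 0.67, and lower in TLSMGC than in TLSMG (-2.24, -0.39 and -0.98). Ndp, the gene of Norrin itself, did not pass the filter on low values, with group means from 0.125 TPM (96h) to 0.477 (TLSMG). The part of endothelial cells in the values of Fzd4 was not tested. In 96h, where the endothelial sum was 10.1 to 14.8 TPM, Fzd4 stood at 4.60 to 9.19 TPM.

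Beside Fzd8, the sum of 12 neural tube markers was 400.2 to 549 TPM in Gastruloid and 214 to 323 in TLSMG. It was 76.6 to 93.9 TPM in 96h, 63.9 to 78.2 in TLSMGC and 76.4 to 91.0 in TLSMGCL, with Dbx2 listed at 0 in all TLSMGC and TLSMGCL libraries. Of the 9 tested, 8 were higher in Gastruloid than in 96h (20.8% of all genes), and 7 were lower in TLSMGC than in TLSMG (30.5%). Between TLSMG and Gastruloid 4 of 9 were lower (7.87%), whereas the difference of Fzd8 was 0.03. Beside Fzd10, the sum of 11 presomitic and tailbud markers was 1484 to 2025 TPM in 96h. At 120 h it was 453 to 577 TPM with CHIR (TLSMGC) and 459 to 527 with LDN as well (TLSMGCL), against 165 to 273 (Gastruloid) and 227 to 288 (TLSMG). Of these, 7 were higher and 1 lower in TLSMGC than in TLSMG (10.4% and 30.5% of all genes), and 1 of 11, Msgn1, was lower with LDN (-1.18; 0.777% of all genes). The part of either cell type in the values of Fzd8 or Fzd10 was not tested.

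**Figure D4:**
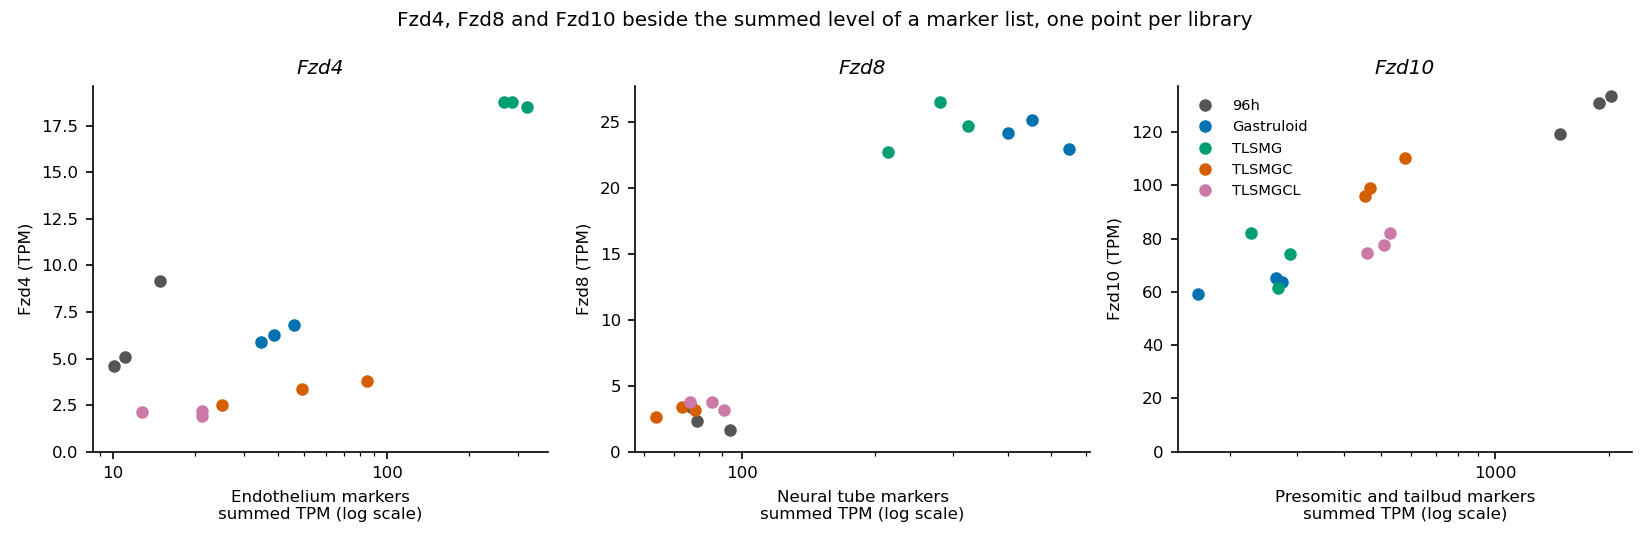
Level of Fzd4, Fzd8 and Fzd10 (TPM, linear axis from 0) against the summed TPM of endothelial, neural tube, and presomitic and tailbud markers (log axis), with a point for each library coloured by group. The TLSMG libraries stand apart for Fzd4 with endothelial sums of 267 to 324 TPM, Gastruloid and TLSMG stand apart for Fzd8, and 96h lies at the upper right for Fzd10.

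The genes most like a member in pattern were sought for the 5 members whose group means spanned at least 1 on the log2 scale, among 10901 other genes with a mean of at least 5 TPM, by the root mean square difference of centred log2(TPM + 1) over the 15 libraries. For Fzd8 they were Hsd11b2 (0.26), Cdkn1c (0.30) and Fam181b (0.31). For Fzd4 they were Usp29 (0.24), Tns2 (0.30) and Nid1 (0.32), and for Fzd9 Zbtb16 (0.22), Spsb4 (0.23) and Lrrc75a (0.23). For Fzd3 they were Gpr161 (0.085), Amotl1 (0.10) and Hmgcs1 (0.12), and for Fzd10 Por (0.13), Per1 (0.13) and Ppif (0.14). The measure grows with a gene's range, so its values do not rank the members against each other. Hsd11b2, an enzyme that inactivates glucocorticoids, averaged 4.15 TPM in 96h, 40.1 in Gastruloid, 42.3 in TLSMG, 7.45 in TLSMGC and 8.56 in TLSMGCL. The lists of neighbours of the 5 members shared no gene.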

How the data were processed

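mRNA libraries were made with a stranded kit and sequenced as paired reads of 75 bases, per the labels' protocols. Cutadapt 2.4, STAR 2.7.3a and StringTie 2.0 on build mm10 are named in the submitters' processing notes, and the annotation is not given in the sources used here. The deposited TPM and FPKM values (fragments scaled for length and library size) and coverage (mean read depth over exons) came from 1 gene table per library, per the file headers. Coverage divided by FPKM served to compare depth.

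Here, rows of one gene ID were summed and log2(TPM + 1) was fitted with limma 3.58.1 in R 4.3.3, with 5 group means in 1 model and a trended prior, over 14290 genes. P-values are two-sided, and each comparison's were adjusted over all genes after Benjamini and Hochberg, with calls at an adjusted p under 0.05. The fit was tested on simulated data. Python 3.11.15 was used otherwise. All 10 members are named, and from each other list at most the 3 genes with the largest called difference in a comparison. Wnt5a is named besides, for its level in TLSMG. The members and lists were chosen with earlier results of these data known. Alternatives covered the pseudocount, filter, unit, scaling, model, GC content, replicate block and each library left out. Single-cell samples (5) and NanoString data were not analysed here. TPM values carry no read counts, so no counting intervals were computed.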

Additional observations from a re-analysis of the deposited data

How the results depend on the processing

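Of 1880 values of a member in a comparison under an alternative, 1723 kept their direction and side of the threshold, 60 changed sign without being called in either fit, 52 lost a call, 43 gained one and 2 changed sign and lost a call, all over 10 comparisons. Those 2 were Fzd3 between TLSMG and Gastruloid, at -0.013 after the GC content and length correction, alone (adjusted p 0.918) and with the replicate block (0.920). Members called between TLSMG and Gastruloid numbered 4 in place of 2 under that correction, with and without the replicate block, because Fzd1, Fzd2 and Fzd10 were gained and Fzd3 lost. Between TLSMGCL and TLSMGC 1 member, Fzd10, was called with library weights, with the correction and with the correction and the replicate block (adjusted p 0.0354, 0.0320 and 0.0224); the cause was not tested. With a library left out, 5 to 7 members were called for Gastruloid against 96h, 7 for TLSMG against 96h, 2 to 3 for TLSMG against Gastruloid, 6 to 7 for TLSMGC against TLSMG, 0 for TLSMGCL against TLSMGC and 7 for TLSMGCL against TLSMG. The shares of members in the Frizzled pool moved by less than 1 SD in 250 of 250 cases, which does not measure how stable they were. Leaving out 1 of 3 libraries cannot move a mean by 1 SD, and FPKM and TPM give the same shares within a library.

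Same-numbered libraries deviated together at r from -0.18 to 0.10 (mean -0.02), and 1 of 15 libraries was closest to its own number. These values showed no shared deviation by number, but the labels do not say whether equal numbers mark a shared batch. Fitting the replicate block alone gave 7, 7, 2, 8, 0 and 7 members called in the 6 comparisons in the order above, as without it, and 122 in place of 169 genes for TLSMGCL against TLSMGC. That count of all genes was 42 in a fit of these 2 groups, 341 with library weights, 56 without TLSMGC replicate 2, and 70 and 78 without TLSMGCL replicates 1 and 3. Depth limits the low values: of the members with 1 transcript, Fzd9 had the fewest reads, about 73 to 92 a library in 96h.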
